A study of Mus musculus with 12 samples.

Results

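The cells described here are the G2/M crypt progenitors of mouse small intestinal epithelium, dividing cells that were near or in mitosis when they were captured. They were chosen by their values: a cell had to hold the B-type cyclin gene Ccnb1 above 0, and it was then ranked by its mean normalised level (the natural log of 1 plus the value per 10000 of the cell's total) over 10 genes of late G2 and mitosis, Cdc20, Ccnb1, Ccnb2, Cenpa, Cdkn3, Nek2, Ube2c, Aspm, Cenpf and Knstrn. The 800 highest cells were kept, of 3028 cells with a Ccnb1 value and 27881 cells in all, which is 26.4% and 2.87%. The score ran from 1.85 down to 1.05, with a median of 1.25. The cell 10 places inside the limit scored 1.06 and the cell 10 places outside it 1.05, and 226 cells with a Ccnb1 value lay within 0.05 of the last member, so the limit falls inside a continuous range of cells.

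The cells came from droplet-based, 3' single-cell RNA sequencing of small intestine from adult Lgr5DTR-GFP mice, a strain named for a diphtheria toxin receptor and green fluorescent protein at the stem cell gene Lgr5. Per the labels, the gut was divided into 30 pieces of equal length, the cells of each piece received their own MULTI-seq tag, and cells without the leukocyte protein CD45 and with the epithelial protein EpCAM were sorted. The 8 samples analysed all carry this strain, age and sort, and they are called diet samples without a diet being named for any of them. Their cells share 1 table, in which the cell barcodes fall into 8 numbered sets. Nothing in the labels ties a set to a sample, to a diet or to an animal, so the sets were used to show spread and never as treated and control groups. The 4 other samples of the series (2 of total epithelium and 2 of progenitors) were not analysed here.

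Cells in G2 build up the mitotic cyclins and their kinase Cdk1. They also make the motor and microtubule proteins of the spindle and the kinetochore proteins that hold chromosomes to it, and late in mitosis and after it the anaphase promoting complex marks many of these proteins for destruction. In the intestine this happens in the crypts, where Lgr5-positive stem cells at the base and the transit amplifying cells above them divide, and where daughter cells take on an absorptive or a secretory fate as they leave. Many genes of this programme are held down outside G2 and M through a promoter element known as the CHR, and carry CCAAT boxes close to it.

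Promoters of 6 genes are printed to show those elements in genes on which the comparisons turn: 2 of the genes that chose the cells (Cdc20 and Ube2c), Ccnb1, which the rule required, Cdk1 and Mki67, which the rule did not use, and the replication gene Pcna, which marks an earlier phase. Each run is the 150 bases before the transcription start in RefSeq (GRCm38.p6), 5' to 3' on the gene's strand. Capitals mark the CHR core TTTGAA, its relative TTTAAA, and the CCAAT box. A motif on the other strand is marked too: TTCAAA is the CHR core read from there, and a box read from there appears as ATTGG. The windows are chr4:118437344-118437493 (minus strand) for Cdc20, chr2:164769779-164769928 (plus) for Ube2c, chr13:100786487-100786636 (minus) for Ccnb1, chr10:69352913-69353062 (minus) for Cdk1, chr7:135716380-135716529 (minus) for Mki67 and chr2:132253181-132253330 (minus) for Pcna.
Cdc20: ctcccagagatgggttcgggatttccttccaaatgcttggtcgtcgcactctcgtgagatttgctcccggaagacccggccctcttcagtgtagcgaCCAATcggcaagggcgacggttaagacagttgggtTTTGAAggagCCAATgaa
Ube2c: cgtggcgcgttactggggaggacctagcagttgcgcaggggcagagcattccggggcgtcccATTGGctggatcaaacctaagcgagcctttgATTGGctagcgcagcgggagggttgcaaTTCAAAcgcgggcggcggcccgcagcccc
Ccnb1: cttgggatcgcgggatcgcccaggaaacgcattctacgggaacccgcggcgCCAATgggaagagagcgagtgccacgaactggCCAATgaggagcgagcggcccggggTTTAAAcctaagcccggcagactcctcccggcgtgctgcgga
Cdk1: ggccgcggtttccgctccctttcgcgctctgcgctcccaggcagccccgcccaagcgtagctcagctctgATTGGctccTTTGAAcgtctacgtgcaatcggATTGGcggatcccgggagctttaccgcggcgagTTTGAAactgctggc
Mki67: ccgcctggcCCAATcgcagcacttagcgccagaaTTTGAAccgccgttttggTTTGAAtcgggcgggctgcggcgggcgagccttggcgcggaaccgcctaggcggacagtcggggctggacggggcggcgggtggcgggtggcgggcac
Pcna: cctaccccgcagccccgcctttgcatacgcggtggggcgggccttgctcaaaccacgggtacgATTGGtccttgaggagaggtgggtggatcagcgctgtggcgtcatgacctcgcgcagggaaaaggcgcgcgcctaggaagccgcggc

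Counting the base before the start as -1 and giving the first base of each match on the printed strand, Cdc20 holds TTTGAA at -18 between CCAAT at -53 and at -8. Ube2c holds the reversed TTTGAA at -29, and Cdk1 holds TTTGAA at -71 and at -15. Mki67 holds it at -116 and at -98. Ccnb1 has no TTTGAA here but TTTAAA at -42 with CCAAT at -99 and -67, and Pcna has CCAAT alone, at -87. Over the longer window of 250 bases before to 50 after the start, with both strands read, TTTGAA or TTCGAA was present in 7 of the 10 genes of the rule (all but Ccnb1, Nek2 and Knstrn), and CCAAT in 9 of 10 (all but Knstrn). None of these motifs contains another. Across all 27025 genes with a promoter in the table, 21.7% held TTTGAA or TTCGAA and 41.1% held CCAAT. A match says only that the letters are there.

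The deposited values are whole numbers that do not behave as raw counts: a 2 occurred more often than a 1 in 25.3% of all cells, and totals per cell ran from 2764 to 9739. They were therefore treated as scores with no count model, the depth in reads is unknown, and no p-value is given. A gene's level is its share of the summed values of a group of cells, in millionths (ppm). Differences are log2 ratios of levels after adding 1 ppm, which understates the difference of low genes. A gene is called higher or lower where the mean of both levels was at least 10 ppm, the log2 difference was at least 1, and the direction was the same in every barcode set with at least 20 cells on each side. That was 7 of the 8 sets, since set 4 held 3 members. A call is a rule of size and not a test.

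The members were set beside 3 groups of 800 comparison cells with the same number of cells from each set. G1/S comparison cells had Ccnb1 at 0 and the highest mean over 10 replication genes. Non-cycling stem comparison cells had 7 cycle genes at 0 and the highest mean over 8 stem cell genes, and enterocyte comparison cells, absorptive cells of the villus, had Mki67, Top2a and Ccnb1 at 0 and the highest mean over 8 enterocyte genes. Genes used to choose either side are left out of every count of calls. Comparison cells matched on detected genes, an alternative used below, were picked in each set from a wider pool of the same ranking. They could therefore also score lower on the genes that chose them. The median number of detected genes was 2857 in the members, 3041.5 in the G1/S cells, 2038 in the stem cells and 2706.5 in the enterocytes. Mitochondrial genes took 7.40% of the members' values and ribosomal protein genes 16.9%. Of 27802 distinct barcode sequences, 78 occurred in more than 1 set, and 3 of the members carried such a barcode.

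The label was checked on markers. The 6 markers of the label are among the genes of the rule, so their levels only describe it: in the barcode sets Cdc20, which activates the anaphase promoting complex, had levels of 230.3 to 289 ppm with a median of 263. Ube2c, the ubiquitin-conjugating enzyme that works with that complex, had 824 to 909.6 ppm with a median of 857, and Cenpf, a kinetochore protein, 698 to 817 ppm with a median of 735. A value for Cdc20 was present in 85.6% of members against 1.62% of enterocyte comparison cells, for Ccnb2 in 92.2% against 3.75%, for Cenpa, the centromeric histone, in 98.1% against 4.38%, and for Ube2c in 98.9% against 6.50%. Every member had values for at least 6 of the 10 genes, with a median of 9. The median detected genes of the 2 groups were close. However, the enterocyte cells were chosen to lack values for the cycle genes Mki67, Top2a and Ccnb1. Their shares may therefore understate the background that free RNA and stray values give in cells that should lack these genes. Since the members were chosen for high values of the same genes, the contrast describes how both groups were chosen and does not test the label.

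Epithelial markers summed to 5727 ppm in the members, and markers of other lineages were near 0. T cell markers summed to 0.401 ppm, with 6 of 7 measured genes at 0. Stromal markers summed to 0.802 ppm, endothelial markers to 3.41, B or plasma cell markers to 4.21 and red blood cell markers to 1.20. Myeloid markers summed to 23.7 ppm, most of it Itgam at 17.8 ppm, and 3 of the 6 measured genes were at 0. Tuft cell markers summed to 26.5 ppm. For the crypt part of the label, stem cell markers summed to 5038 ppm in the members (3391 to 5894 over the sets). Over single members the median sum was 2939 ppm. The pooled sum was 489.6 ppm in the enterocyte cells and 14632 ppm in the stem cells. The enterocyte cells were chosen for enterocyte genes and the stem cells for genes of this list, so the contrast does not test the label. Secretory markers were present at low levels. Over the sets goblet markers summed to 393 to 2075 ppm, Paneth markers to 506 to 2112 ppm and enteroendocrine markers to 52.3 to 598 ppm. The pooled sums of 1016, 1194 and 238 ppm lay below the 2053, 2195 and 688 ppm of the enterocyte cells. They therefore do not show secretory expression by the members themselves.

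There was 1 exception. In 5 members, 11.4% to 32.6% of all values lay in the stomach genes Tff1, Tff2, Gkn1 and Gkn2, while no other member passed 0.0506%. In these 5 cells Muc5ac, a gastric surface mucin, stood at 2399 ppm and Sox2, a foregut transcription factor, at 113 ppm, while the intestinal factor Cdx1, Olfm4 and Lgr5 were listed at 0. Mki67 was at 1270.1 ppm in them and 769 ppm in the rest. They lay in set 7 (3 cells), set 3 and set 8, and go against the label of intestinal crypt cells. The sort and the dissection as labelled do not name stomach tissue. No G1/S comparison cell passed the same limit of 5% of its values. Results below that these cells touch are given with and without them.

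The members were unevenly divided over the barcode sets. They made up 0.131% of the cells of set 4 (3 of 2286, exact 95% interval 0.0271 to 0.383), between 1.64% and 3.64% of those of 6 sets, and 5.86% of the cells of set 8 (187 of 3189, 5.07 to 6.74). The intervals cover counting error only. Sets also differed in how many cells held a value for the proliferation genes Mki67 or Top2a, from 27.7% in set 1 to 73.6% in set 7. Set 7 had the largest share of such cells and an ordinary share of members, 2.80%. Taken over cells with a Mki67 or Top2a value, members were 0.459% in set 4, 3.80% in set 7, 8.46% in set 6 and 12.3% in set 8. Sets 8 and 4 kept the highest and lowest place on both denominators, and the order of the sets between them changed.

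**Figure D1:**
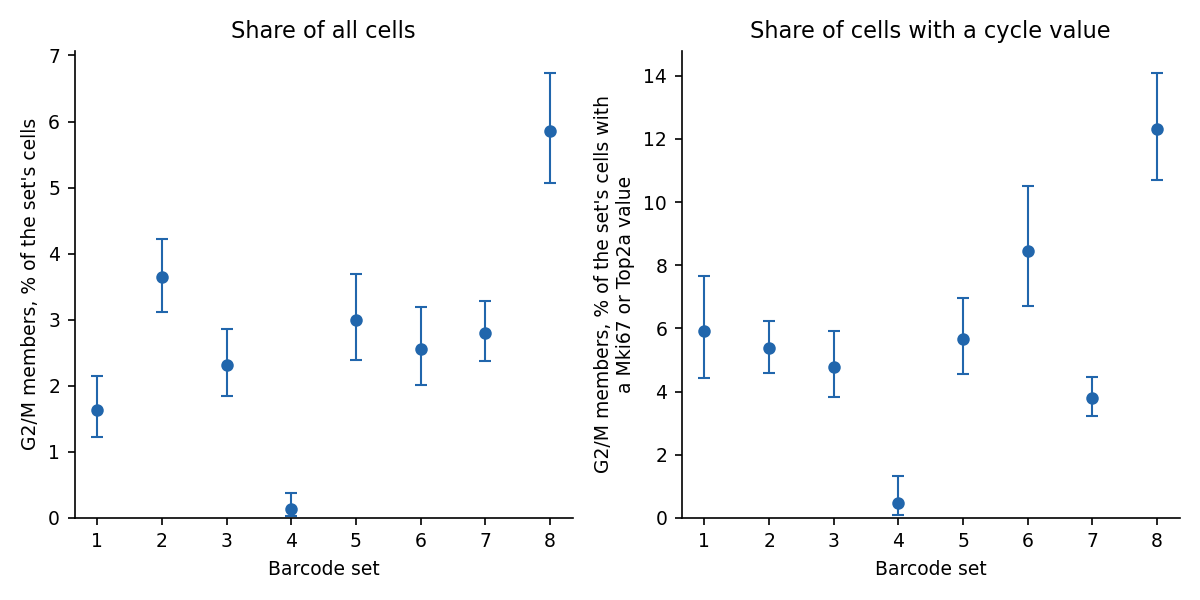
Share of each barcode set's cells that were G2/M members, over all cells (left) and over cells with a Mki67 or Top2a value (right); points are shares in percent and bars exact 95% intervals for counting error. Set 8 stands highest (5.86% and 12.3%) and set 4 lowest (0.131% and 0.459%) in both panels.

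Against G1/S comparison cells, the members showed the machinery of mitosis at several times the level of cells preparing replication, and replication genes at a fraction of it. Of 9460 genes that passed the minimum level and were used to choose neither side, 218 were higher, which is 2.3%, and 302 were lower, which is 3.19%. The median difference over all these genes was -0.01. Of the lists, spindle proteins held the largest share of higher genes, 23 of 29, and replication genes the largest share of lower genes, 34 of 38. Stem cell markers held none of either among 21. The members and lists share the choice of cells by cycle genes with this contrast, so these counts describe the 2 groups and support nothing.

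**Figure D2:**
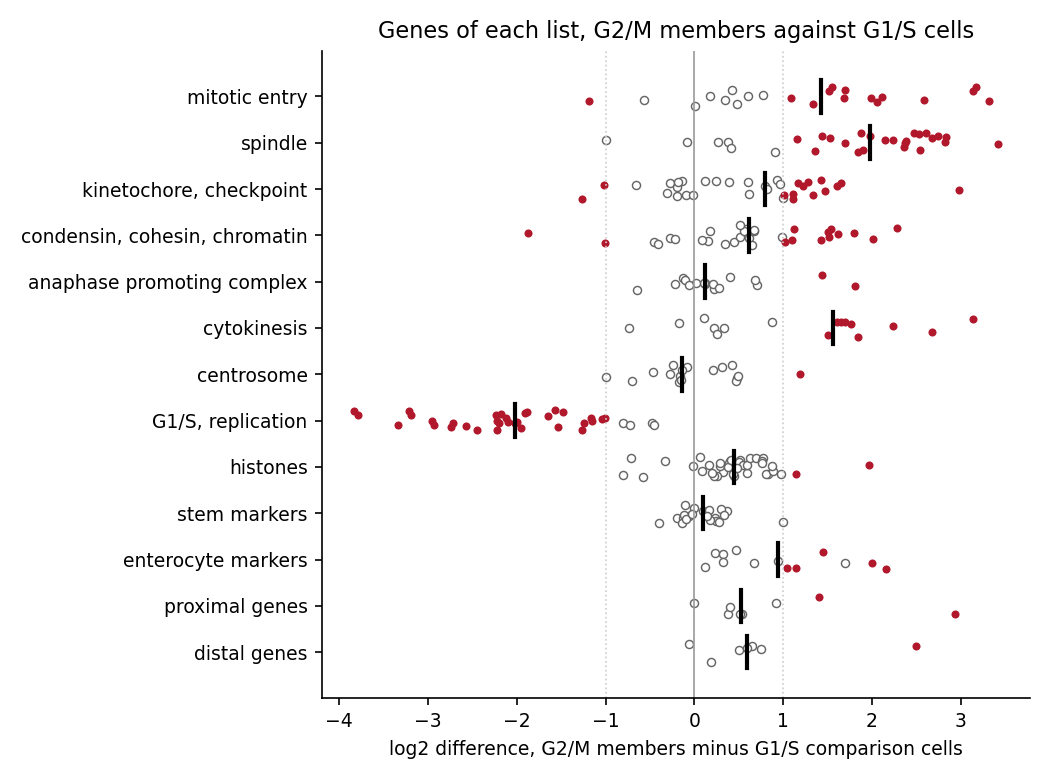
Each point is a gene that passed the minimum level, placed by its log2 difference between G2/M members and G1/S comparison cells; filled points met the call rule, open points did not, and black bars are list medians. Spindle genes centre at 1.98, cytokinesis genes at 1.56, replication genes at -2.02 and stem markers at 0.10.

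Mitotic entry came first in the cycle and is given first. Of 23 kinases, cyclins and regulators of entry, 22 passed the minimum level, 13 were higher and 1 was lower, with a median difference of 1.43. Cdk1, the kinase that drives entry, had levels of 196 to 245 ppm over the sets in the members (median 208) and 58.0 to 75.1 ppm in G1/S cells (median 64.0). The ranges did not overlap, and the pooled levels of 219 and 66.7 ppm gave a difference of 1.70. Ccna2, the cyclin that partners it from S phase on, had 180.2 to 230.2 ppm against 32.2 to 61.0 ppm, a difference of 1.99. Plk1, the polo kinase that acts at entry and at the spindle, had 132 to 173 ppm against 6.05 to 24.6 ppm, a difference of 3.14. None of these ranges overlapped. The phosphatases that switch Cdk1 on stood furthest apart: Cdc25c was at 55.9 against 4.69 ppm (3.32) and Cdc25b at 69.8 against 6.84 ppm (3.17). Aurka, the centrosomal Aurora kinase, was at 114 against 18.2 ppm (2.59), and Cks2, a small Cdk1 partner, at 424 against 97.6 ppm (2.11). The lower gene was Pkmyt1, a kinase that holds Cdk1 inactive, at 12.2 against 29.1 ppm (-1.19), and its call ended with a median over sets, with 1600 members and with comparison cells matched on detected genes.

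Spindle genes had a median difference of 1.98 and summed to 7211 ppm in the members against 2583 ppm in G1/S cells. Hmmr, a protein that focuses spindle poles, had 246 to 303 ppm over the sets (median 255) against 16.8 to 34.0 ppm (median 22.2), a difference of 3.41. Its ranges lay far apart. Arl6ip1 followed at 1046 against 146 ppm (2.84), then Nusap1, which bundles microtubules, at 407 against 56.9 ppm (2.82), the tubulin gene Tuba1c at 264 against 38.7 ppm (2.74) and the kinesin Kif20a at 61.8 against 8.80 ppm (2.68). The other tubulin genes were uneven: Tubb5 differed by 0.27 and Tuba1b by 0.42, and neither was called. Stmn1, which destabilises microtubules, differed by -0.08. Tubg1, the tubulin that nucleates microtubules, stood at 14.03 against 28.9 ppm and a difference of -0.99, just short of a call, and passed it without the 5 members rich in stomach genes.

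Kinetochore and checkpoint genes were mixed, with 12 of 33 higher, 2 lower and a median difference of 0.80. Cenpe, the kinesin that carries chromosomes to the spindle equator, had 324 to 419 ppm over the sets in the members against 40.7 to 58.0 ppm, a difference of 2.98. Among the other higher genes of the list, Sgo2a, a protector of centromeric cohesion, differed by 1.65, Bub3 of the spindle checkpoint by 1.61 and Spdl1 by 1.43. The 2 lower genes code for inner kinetochore proteins, Cenph at 41.9 against 102 ppm (-1.26) and Cenpk at 39.3 against 80.5 ppm (-1.02). Without set 1, 2 or 3 Cenpk differed by -0.99, -0.97 and -0.99 and was not called. Neither call held with comparison cells matched on detected genes, where the differences were -0.97 and -0.74.

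Of 31 genes for condensin, cohesin, the chromosomal passenger complex and chromatin, 11 were higher and 2 lower. The passenger genes led: Birc5 had 372 to 449.6 ppm over the sets against 64.3 to 113 ppm (2.29), and Cdca8 was at 291 against 71.2 ppm (2.02). Espl1, the separase that cuts cohesin, differed by 1.62 and the cohesin subunit Rad21 by 1.53. Hmgb2, an abundant chromatin protein, had 2152 to 2746 ppm over the sets against 709 to 926 ppm, a difference of 1.52. Mki67, which coats mitotic chromosomes, had 634 to 890.2 ppm against 193 to 336 ppm, a difference of 1.43. Top2a, the topoisomerase that untangles sister chromatids, had 862 to 1188 ppm against 387 to 585 ppm. Its ranges did not overlap, but its difference of 0.99 fell short of the call. The lower genes were both condensin II subunits, Ncapg2 at 32.9 against 123 ppm (-1.87) and Ncapd3 at 61.6 against 124 ppm, at the limit of a call; without set 1, 2, 3 or 7, Ncapd3 differed by -0.98, -0.97, -0.99 and -0.98 and was not called.

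The genes of exit from mitosis were split. Of 17 genes of the anaphase promoting complex and its partners, 2 were higher, with a median difference of 0.12: Fzr1, the activator that follows Cdc20, at 53.1 against 14.5 ppm (1.81), and Ube2s, which lengthens ubiquitin chains, at 277 against 102 ppm (1.44). Of 16 cytokinesis genes, 9 were higher with a median of 1.56. Prc1, which bundles the midzone, was at 349 against 73.3 ppm (2.23), Kif23 of the centralspindlin complex at 255 against 70.6 ppm (1.84) and Anln, a scaffold of the contractile ring, at 150.4 against 43.6 ppm (1.76). Centrosome genes held 1 call among 17, Odf2, with a difference of 1.19 and a list median of -0.14; with comparison cells matched on detected genes its sets did not all share a direction. The transcription factors of the programme held no higher gene and 2 lower genes among 14, and with comparison cells matched on detected genes 1 higher and 2 lower. Foxm1 was at 30.9 against 15.8 ppm, a difference of 0.92, and its ranges over the sets overlapped. Mybl2, its partner in the CHR-binding complexes, was lower at 10.2 against 68.8 ppm (-2.64), with 3.07 to 12.5 ppm over the sets against 50.4 to 79.0 ppm. Tfdp1, the partner of E2F factors, was lower at 50.9 against 128 ppm (-1.31).

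The 218 higher genes were compared with the promoter table. Of these, 184 could be matched (84.4%), and 48.9% of them held TTTGAA or TTCGAA (exact 95% interval 41.5 to 56.4), 67.4% held CCAAT (60.1 to 74.1) and 37.0% held both (30.0 to 44.4). Among all genes that passed the minimum level in this comparison, 7657 were matched (80.8%), and the shares were 17.3%, 43.5% and 7.50%. The elements printed above for Cdk1 and Mki67 are therefore shared by a larger part of the higher genes than of all genes measured. Of the lower genes 78.1% were matched, under the 80% needed, so no share is given for them.

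Replication genes were lower throughout the list. Beyond the 10 genes that chose the G1/S cells, 34 of 38 were lower and none was higher, with a median difference of -2.02 and sums of 1511 against 5723 ppm. Ung, which removes uracil from DNA, had 0 to 4.23 ppm over the sets in the members and 50.02 to 61.4 ppm in G1/S cells, a difference of -3.83. Ccne2, the late G1 cyclin, was at 5.01 against 81.9 ppm (-3.79), Cdt1, which licenses origins, at 10.6 against 116 ppm (-3.33), E2f1 at 4.41 against 49.3 ppm (-3.22) and the polymerase gene Pola1 at 51.7 against 481 ppm (-3.19). All of these ranges were separate. With comparison cells matched on detected genes (median 2854.5), 28 of the 38 were lower and the median was -1.73. Outside the lists the lower genes with the largest differences were Tcf19 (-3.38), Slfn9 (-3.25), the cohesion factor gene Dscc1 (-2.92), Wdr76 (-2.84), Zfp367 (-2.67), the primase gene Prim2 (-2.63), Zgrf1 (-2.52) and the mismatch repair gene Msh6 (-2.50).

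Of the higher genes outside the lists, Pif1, a DNA helicase, had the largest difference: 25.1 to 61.8 ppm over the sets against 0 to 3.13 ppm, 222 cells with a value against 6, and a difference of 4.58. Sapcd2, which acts in spindle orientation, differed by 3.25, Prr11 by 3.03, Cdca3, which helps degrade Wee1, by 2.89, Gas2l3 by 2.80 and Troap, a spindle protein, by 2.55. These genes are known from dividing cells. Apol10a (81.2 against 11.3 ppm, 2.74) and the planar polarity gene Vangl1 (39.1 against 5.28 ppm, 2.68) are not part of the mitotic apparatus. Vangl1 was low in every comparison group, at 7.80 ppm in stem and 2.15 ppm in enterocyte cells. Apol10a reached 245 ppm in enterocyte cells.

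Of 14 genes for G1 cyclins, their kinases and inhibitors, 2 were higher and 2 lower. Both higher genes code for inhibitors of Cdk4 and Cdk6. Cdkn2b, the gene of p15, had 23.3 to 58.3 ppm over the sets in the members (median 26.7) and 0 to 12.1 ppm in G1/S cells (median 1.89), and the difference was 3.21. The ranges did not overlap. A Cdkn2b value was present in 122 members, 12 G1/S cells, 21 stem cells and 312 enterocytes, so the gene was also one of the non-dividing villus cells. Cdkn2d, the gene of p19, had 14.3 to 33.8 ppm against 3.001 to 11.3 ppm, a difference of 1.64 (0.97 and not called with a pseudocount of 10 ppm), and was at 2.69 ppm in enterocytes. Cdk2 (-1.43) and the retinoblastoma relative Rbl1 (-1.04) were lower, Rbl1 no longer with matched comparison cells (-0.99) or without set 2 (-0.99) or set 3 (-0.95).

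Stem cell markers did not separate the members from G1/S cells by the call rule. The list summed to 5038 against 5178 ppm, while the median gene differed by 0.10; with comparison cells matched on detected genes that median was -0.17, so its sign depends on the comparison cells. Over single cells the median sum was 2939 ppm in the members against 4263 ppm. Lgr5 had 196 to 409 ppm over the sets against 101 to 334 ppm (0.36), Olfm4 919 to 1834 ppm against 1387 to 2181 ppm (-0.14) and Ascl2, a stem cell transcription factor, 27.6 to 57.1 ppm against 16.9 to 64.1 ppm (0.16). All 3 ranges overlapped. A Lgr5 value was present in 36.2% of members and 34.6% of G1/S cells, beside 5.50% of enterocytes. An Olfm4 value was present in 62.5% of members, 83.1% of G1/S cells and 42.5% of enterocytes. The presence of a value thus says little, since many cells that should lack the gene held one. By level Olfm4 was at 1503 ppm in the members, while the whole stem marker list summed to 489.6 ppm in enterocytes.

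Enterocyte markers held 5 higher genes among 13, no lower gene and a median of 0.94. Sis, the brush border enzyme sucrase-isomaltase, had 103 to 286 ppm over the sets (median 184) against 27.1 to 101 ppm (median 34.0), a difference of 2.16. Its lowest set in the members lay just above the highest in G1/S cells. Alpi, intestinal alkaline phosphatase, differed by 2.00, the keratin Krt20 by 1.45 and Mttp, which loads lipoproteins, by 1.14. The sum over the list was 1917 ppm in the members, 1214 ppm in G1/S cells and 95507 ppm in enterocytes. With comparison cells matched on detected genes 3 genes were called, and Mttp (0.95) was not. Over single cells the median sum was 589.6 against 482 ppm, a smaller difference than that of the pooled sums. Regional genes moved with it, Gsta1 (2.93) and Adh6a (1.41) of 8 proximal genes tested and Fabp6 (2.50) of 7 distal genes; without the 5 members rich in stomach genes Gsta1 fell under the minimum level, at a difference of 2.30. Goblet, Paneth, enteroendocrine, Notch, p53, glycolysis and dissociation stress lists held no call.

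**Figure D3:**
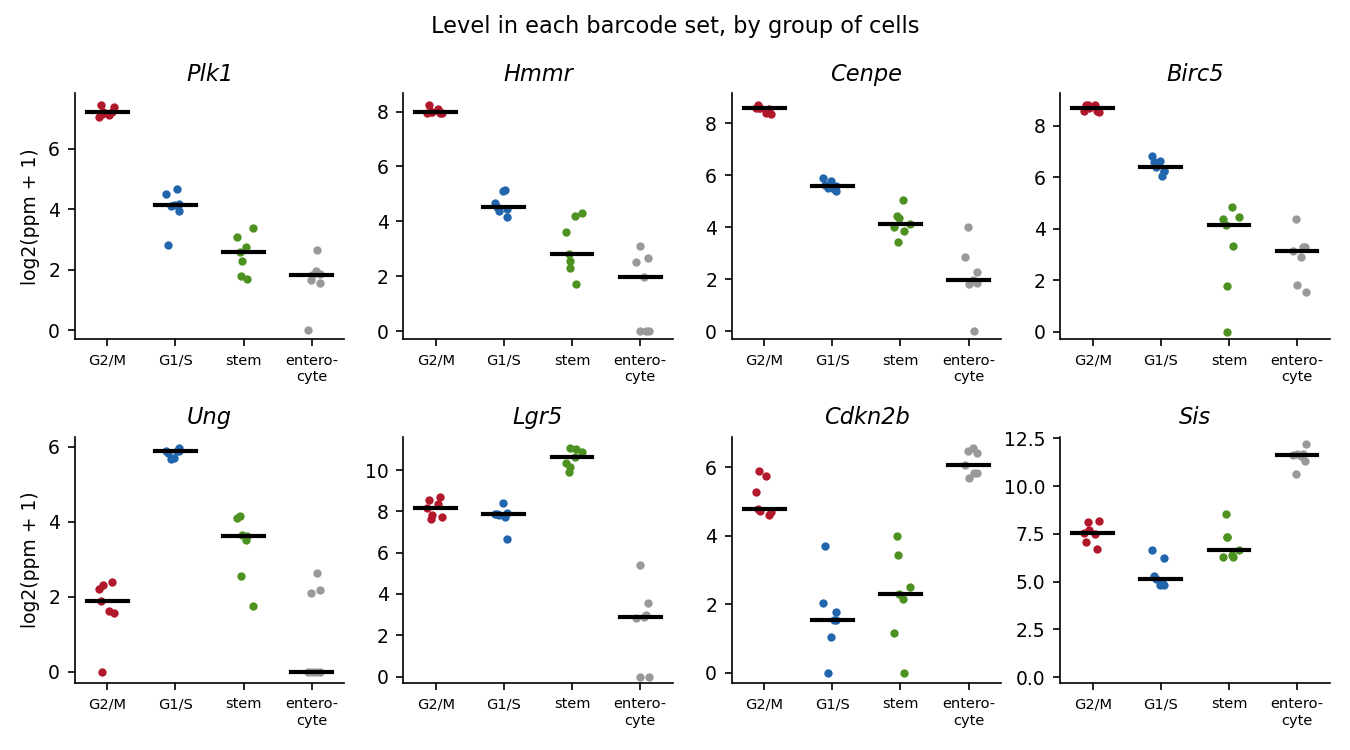
Level of 8 genes in each of the 7 barcode sets with at least 20 members, as log2(ppm + 1), in G2/M members, G1/S, non-cycling stem and enterocyte comparison cells; points are sets and black bars medians. Plk1, Hmmr, Cenpe and Birc5 are highest in the members, Ung in G1/S cells, Lgr5 overlaps between members and G1/S cells, and Cdkn2b and Sis lie between G1/S cells and enterocytes (Lgr5 helped choose the stem cells and Sis the enterocytes).

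Replication-dependent histone genes, which are copied in S phase and share near-identical sequences, summed to 3059.6 ppm in the members and 2266 ppm in G1/S cells. Over single cells the median sum was 926 against 902 ppm, so the pooled difference was not that of the typical cell. Reads of 1 copy can be assigned to another, so single histone genes are uncertain. Of 38 that passed the minimum level 2 were higher, Hist3h2a at 21.2 against 4.69 ppm (1.97) and Hist1h2af (1.15, and 0.95 without set 8, where it was not called), and the list median was 0.44. With comparison cells matched on detected genes 4 were higher.

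Against non-cycling stem comparison cells nearly all spindle, kinetochore, entry and histone genes tested were higher, and other division lists held fewer calls. The members were chosen by mitotic genes and the stem cells for cycle genes at 0. The counts for division genes largely follow from that choice and test nothing. Of 9488 genes, 1145 were higher (12.1%) and 713 lower (7.51%). Spindle genes were higher in 28 of 28, kinetochore genes in 32 of 33, entry genes in 17 of 19 and histone genes in 29 of 31, with histone sums of 3059.6 against 485 ppm. Condensin, cohesin and chromatin genes were higher in 23 of 29, cytokinesis genes in 10 of 16, centrosome genes in 6 of 15, anaphase promoting complex genes in 5 of 17 and transcription factors of the programme in 3 of 13, with no lower gene in these 5 lists. Foxm1 was called here, at 30.9 against 2.84 ppm (3.05), with Lin54 (2.04) and Lin9 (1.11) of the complex that binds CHR elements; Lin9 was not called without set 8 (0.95). Cdk1, Ccna2, Top2a and Mki67 were listed at 0 in the stem cells by the way these were chosen. The depth of the groups differed, with 2857 against 2038 detected genes. With mean deposited values per cell in place of shares of each group's sum, which adds nearly the same amount to every gene's difference, 1784 genes were higher and 418 lower (81.0% of calls higher, against 61.6%), and the all-gene median was 0.32 in place of 0.09. With stem cells nearer in detected genes (median 2543.5), 644 were higher and 551 lower (53.9% higher) and the median of all genes was -0.02. These cells came from a wider pool of the stem ranking, so they could differ in stem score as well as in depth. The part of each was not tested.

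With the stem cells matched on detected genes, 28 of 30 spindle genes, 31 of 32 kinetochore genes and 28 of 31 histone genes were higher. Both groups were still chosen by cycle genes there. The lists that follow lost calls. Glycolysis genes were higher in 5 of 12, led by Pgk1 (165 against 57.7 ppm), Pgam1 (1.40), Ldha (1.32), Pkm (1.31) and Tpi1 (1.20), and Hk2 was lower (-1.09), but with matched cells none of the 12 was called. Of 13 stem markers not used to choose the cells, 6 were lower, among them Rnf43 (239.8 against 770.2 ppm, -1.68), a ubiquitin ligase that removes Wnt receptors, Lrig1 (-1.29) and Cdk6 (-1.18); with matched cells 1 was lower. Enterocyte markers were lower in 5 of 14 (4 with matched cells), led by Apoa1 at 61.6 against 857 ppm (-3.78). Their median difference was -1.39, and a wider -2.70 with matched cells. In the stem cells their sum ran from 1609 to 10171 ppm over the sets, with a median of 2924. Fabp2 of this list differed by -0.69 without set 8 and was not called. Paneth markers were lower in 8 of 9 (6 with matched cells), led by Defa24 (-2.73) and Defa30 (-2.70), and goblet markers in 5 of 8 (2 with matched cells), led by Zg16 (-2.31). Enteroendocrine markers were lower in 7 of 7, and in 4 of 6 with matched cells, led by Gip (-2.93). The stem comparison cells thus carried more secretory and absorptive RNA than the members. The part of that in the other differences, and in the calls that ended with matched cells, was not tested.

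Of 14 genes for G1 cyclins, their kinases and inhibitors, 6 were higher in the members than in the non-cycling stem cells and 2 lower, and 5 and 1 with matched cells. Higher were the inhibitor genes Cdkn2d at 22.2 against 2.36 ppm (2.79), Cdkn2c at 20.9 against 3.55 ppm (2.26), Cdkn2b at 31.7 against 6.15 ppm (2.19) and Cdkn1b at 76.0 against 31.9 ppm (1.23). The call of Cdkn2b ended with matched cells, at a difference of 0.42. Of the G1 cyclins, Ccnd2 was higher (1.20) and Ccnd3 lower (-2.06). Of 39 replication genes tested, 11 were higher, among them E2f8 (2.62) and Rrm2 (2.17), and 2 were lower, Pola1 (-1.42) and Cdt1 (-1.18), neither of them called with matched cells (-1.28 and -0.91).

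Among the members themselves, replication and histone genes were higher at lower ranks of the score. The 800 cells were divided into 4 blocks of 200 by rank. From the highest block to the lowest, the sum over spindle genes went from 8352 to 6480.0 ppm, over entry genes from 2656 to 2156 ppm, and Cdk1 from 269 to 174 ppm, as the score itself would have it. In the same direction the sum over replication genes went from 1446 to 2071 ppm, over histone genes from 2421 to 3604 ppm, and the sliding clamp gene Pcna from 30.0 to 57.4 ppm. These lists did not enter the score, but the blocks are ranks of that score. Genes of an earlier phase can vary with it, so the trend is a description and not a test. Median detected genes went from 2671.5 in the highest block to 2899 in the lowest. Enterocyte markers were at 1385 ppm in the highest block, 2353 ppm in the third and 1998 ppm in the lowest.

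**Figure D4:**
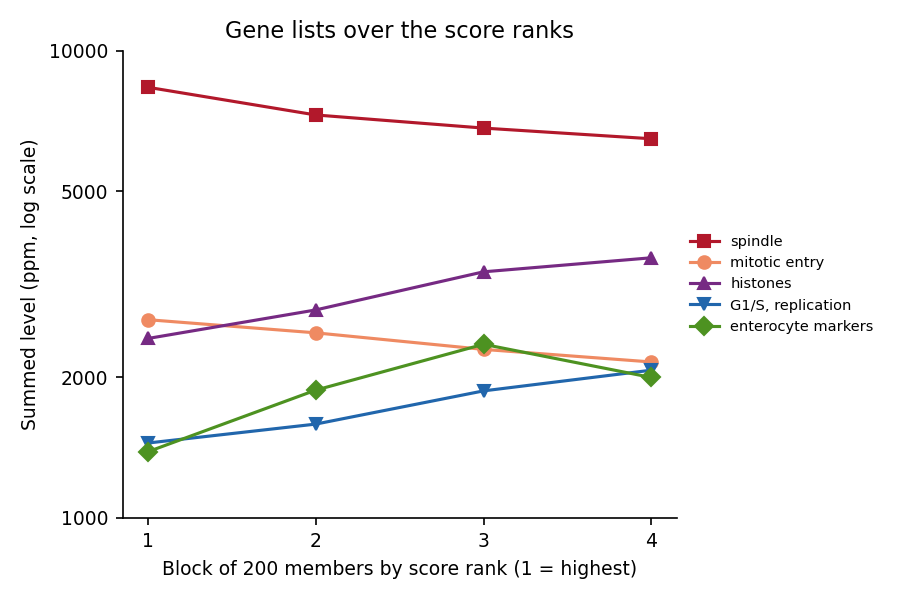
Summed level (ppm, log axis) of 5 gene lists in 4 blocks of 200 members, from the highest scores (block 1) to the lowest (block 4); lines join the blocks. Spindle and entry genes decline (8352 to 6480.0 and 2656 to 2156 ppm), and replication and histone genes climb (1446 to 2071 and 2421 to 3604 ppm).

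Members with a Lgr5 value (290 cells) and without (510 cells) differed in stem, absorptive and regional genes, while few mitotic genes were called. Over 6 sets, 603 of 9411 genes were higher in cells with Lgr5 (6.41%) and 417 lower (4.43%). The 2 groups were not matched by set, with 12 against 40 cells in set 1 and 66 against 83 in set 7. A call needed the same direction within each of the 6 sets, but the sizes given are pooled. The part of set composition in them was not tested. Stem markers were higher in 18 of 20, with a median difference of 2.22: Tnfrsf19 at 79.1 against 4.17 ppm (3.95), the RNA-binding protein Msi1 (3.42), Rgmb (3.04), Olfm4 at 3305 against 420.3 ppm (2.97) and Bex1 (2.85). Enterocyte markers were lower in 9 of 13, with a median of -1.85. The fatty acid carrier Fabp1 was at 87.7 against 968 ppm (-3.45), Alpi at 5.34 against 58.1 ppm (-3.22) and Sis at 35.3 against 267 ppm (-2.89). Of 7 Notch and secretory fate genes 4 were higher, Sox4 (2.03), Notch1 (1.86), Hes6 (1.27) and Notch2 (1.14), and of 9 Paneth markers 4, the defensins Defa22, Defa24 and Defa30 and the pentraxin Mptx2. Regional genes of both ends of the gut were lower in the cells with Lgr5: 6 of 8 proximal genes, among them Adh6a (-2.96) and Meis2 (-2.88), and 4 of 7 distal genes, among them Fabp6 at 28.3 against 885 ppm (-4.92) and Clec2h (-2.42). Of 7 epithelial markers the keratin genes Krt19 (-1.52) and Krt8 (-1.34) were lower, and of 11 dissociation stress genes Jun was higher (1.45), whose part in the other differences was not tested.

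Of 12 glycolysis genes 8 were lower in the cells with Lgr5, among them Pfkp (11.8 against 75.4 ppm, -2.58), Aldoa (-2.01), Ldha (166 against 645 ppm, -1.95) and Pkm (-1.72). Of 14 genes for G1 cyclins, their kinases and inhibitors 3 were lower and 2 higher. Lower were Cdkn2b at 4.81 against 47.8 ppm (-3.07), Cdkn1a, the gene of p21, at 5.88 against 40.8 ppm (-2.60) and the retinoblastoma gene Rb1 at 19.8 against 85.0 ppm (-2.05), and higher were Cdk6 (1.80) and Ccnd3 (1.42). The Cdkn2b level that set the members apart from G1/S cells thus lay mostly in members without Lgr5. Of the division genes, 2 of 22 entry genes (Ttk and Wee1) and 2 of 30 spindle genes (Tubb2a and Tubb5) were called. No kinetochore gene was, and Cdk1 was at 223 against 216 ppm (0.04). The genes of the rule differed by -0.42 (Nek2) to 0.48 (Cenpf). All members passed the same limit on the score of these genes. Similar levels of them, and of other mitotic genes, follow in part from that choice and test nothing. Outside the lists Limch1 (4.76), Fstl4 (4.49) and Kif26b (4.35) were highest with Lgr5, and Mgat4c (-5.09), the lectin gene Reg1 (-4.87) and Apol10a (-4.60) without it. Cells with a Lgr5 value had 3017.5 detected genes at the median and the others 2784.5, and the part of that in these differences was not tested.

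**Figure D5:**
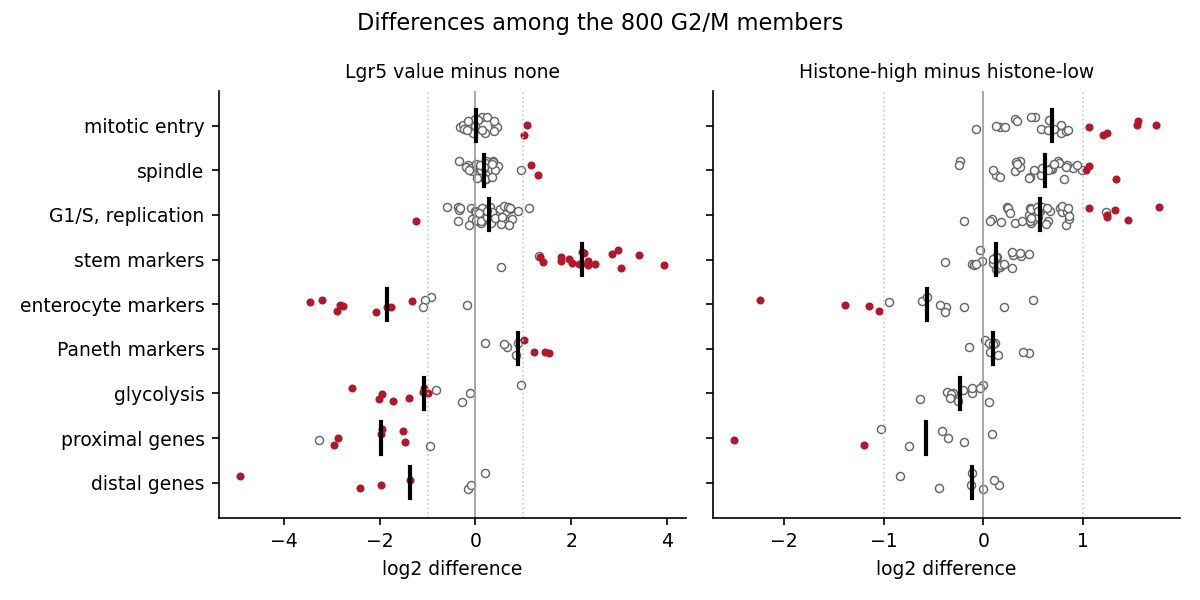
Log2 difference of each gene of 9 lists between members with and without a Lgr5 value (left), and between histone-high and histone-low members (right); filled points met the call rule, open points did not, black bars are list medians. Stem markers centre at 2.22 and enterocyte markers at -1.85 in the left panel, while entry and spindle genes stay near 0 there.

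Fabp6, the ileal bile acid carrier, was spread very unevenly. Over the sets it had 82.7 to 935 ppm in the members, with a median of 638, against 12.0 to 196 ppm in G1/S cells, and these ranges overlapped. A value was present in 154 members and 129 G1/S cells, but 51 members and 11 G1/S cells held at least 10 units, and those 51 held 93.4% of all the members' Fabp6. The 51 cells were described further, with genes chosen after seeing values. Lgr5 was listed at 0 in them and at 328 ppm in the other 749 members, and Olfm4 was at 41.7 against 1599.8 ppm. Cdkn2b was at 122 against 25.7 ppm, with a value in 26 of the 51, and Cdkn1a at 96.3 against 23.1 ppm. Krt20, a keratin of mature epithelium, was at 161 against 23.5 ppm, and Mgat4c at 619.6 against 30.2 ppm, with a value in 48 cells. Of the cycle genes, Mki67 was at 690.2 against 778 ppm, Cdk1 at 193 against 220.5 ppm, Plk1 at 157 against 151 ppm and Hmmr at 266 against 264 ppm. All members were chosen by a high mitotic score, so similar levels of such genes follow in part from the choice. The 51 cells had a median total of 5589 and 2761 detected genes, against 5697 and 2865 in the others, and lay in all 8 sets, from 1 in set 4 to 18 in set 8. Enterocyte markers were mixed in them: Apoa1 was at 125 against 57.3 ppm and Sis at 228 against 177 ppm, Mttp at 96.3 against 86.8 ppm, and Fabp1 at 106 against 673 ppm and Alpi at 16.1 against 39.8 ppm.

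The last division was by histone level, also chosen after seeing values: within each set the cells above the set's median sum of histone genes (397) were set against the others (403). Of 9331 genes, 75 were higher (0.804%) and 21 lower (0.225%) in histone-high cells. Among the higher genes were Fbxo5, the Emi1 inhibitor that holds the anaphase promoting complex off, at 64.5 against 9.29 ppm (2.67), the repair glycosylase Neil3 (2.26), Depdc1b (2.10), Mxd3 (2.06), E2f8 (1.76), Mastl, the Greatwall kinase of mitotic entry (1.73), the kinetochore gene Ndc80 (1.60) and the thymidine kinase gene Tk1 (1.45). Of the lists, entry held 6 higher genes of 22, kinetochore 6 of 33 and replication 6 of 41. Ncapg2, lower in the members than in G1/S cells, was higher here (2.00). The G1 inhibitor gene Cdkn2d (1.10) and the goblet gene Tff3 (1.03) were also higher, as was Ift80 (1.80) outside the lists. Of 11 dissociation stress genes 3 were higher, Egr1 (1.30), Fosb (1.28) and Fos (1.10), and their part in the other differences was not tested. Lower were Gsta1 (-2.50), Alpi (-2.25), Rbp2 (-1.39), Mttp (-1.15), Cdkn2b (-1.13) and Sis (-1.05). Cdc20, which acts late in mitosis, stood at 235 against 272 ppm (-0.21), and Top2a at 1334 against 684 ppm (0.96), neither of them called. Median detected genes were 2926 and 2799.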

How the data were processed

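Expression was measured by 3' single-cell RNA sequencing of 8 pooled diet samples. Per the submitters' processing notes, the authors used Cell Ranger and mm10; the version, any filter on cells and later steps are not stated there. The deposited values are whole numbers of unknown scaling and were treated as a score per gene and cell, with no count model. Doublets were not called. With cells of 1 pooled table and sets that no label ties to a sample, nothing was tested. Levels, differences, the call rule and the comparison cells are as given with the results. Each barcode set was left out in turn in the G1/S and stem comparisons. Cells, lists and divisions were chosen with earlier results of these data known. Named genes are the 10 of the rule, 11 fixed cycle and stem genes, up to 5 called genes per list and direction with the largest difference, and the 8 largest outside the lists per direction, without Gm and Rik symbols; Tubg1, Stmn1, Tubb5 and Tuba1b in the G1/S comparison, and those of the Fabp6-rich and stomach-rich cells, were named after their values were seen. Some genes that the rule names, and 1 division of the members, are not reported here. Histones were taken by symbol. Alternatives changed the pseudocount (10 ppm), minimum level (none or 50 ppm), scaling, number of members (400 or 1600), the Ccnb1 requirement and the comparison cells. The software was Python 3.11.15 with pandas 2.3.3, numpy 2.4.6, matplotlib 3.10.9 and, for intervals, scipy 1.17.1. Promoter sequences and positions are RefSeq's for GRCm38.p6.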

Additional observations from a re-analysis of the deposited data

Results flagged for a closer look

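Barcode sets were compared over 54 quantities of the G2/M members, and in 2 of them a set stood apart from the rest by Dixon's test; chance singles out about 1 in 20 such groups. The members of set 5 had a median of 3223 detected genes, while those of the other sets had medians of 2737 to 2930. T cell markers in the members of set 7 summed to 2.11 ppm, against 0 in the other sets. Only 2 members held a T cell marker value. With every other set at 0 any value would be flagged, so this flag says little.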

How the results depend on the processing

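No paired analysis was possible because the labels give the barcode sets no replicate number and nothing was tested; the comparison cells were drawn set by set, and each call required 1 direction within the sets. Calls depended most on the treatment of low genes. Against G1/S cells, where 218 genes were higher and 302 lower, a pseudocount of 10 ppm gave 143 and 160, a minimum of 50 ppm 107 and 111, and 1600 members 176 lower. Against stem cells, where 1145 were higher and 713 lower, a pseudocount of 10 ppm gave 728 and 474, a minimum of 50 ppm 541 and 354, mean values per cell 1784 and 418, and comparison cells matched on detected genes 644 higher. Leaving out each barcode set in turn gave 216 to 231 higher and 286 to 330 lower against G1/S cells, and 1099 to 1269 and 691 to 807 against stem cells. Without the 5 members rich in stomach genes, an alternative chosen after seeing the data, the counts were 217 and 297, and 1147 and 709. The highest set's share of members was 12.3% over cells with a Mki67 or Top2a value and 9.63% with 1600 members, and the lowest 0.459% and 0.831%. By the median over cells, stem cell markers differed from G1/S cells by -0.54 and enterocyte markers by 0.29, beside -0.04 and 0.66 for the sums. Of 3720 values for single genes in the G1/S and stem comparisons, 3561 moved by no more than their spread over the sets and 159 by more. The former include values under the changed minimum levels, which cannot alter a gene's difference. They also include most values without set 4, which held 3 members. The count of unmoved values therefore overstates stability. No called gene checked in these comparisons changed sign. The genes of the Lgr5 and histone divisions were not run under the alternatives. Of the 1145 genes higher than in stem cells, 1137 kept their direction with matched cells and 1144 with 1600 members. The unknown scale of the values limits every low level, and set 4, with 3 members, adds little to any.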

Other observations

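Over the 7 sets with at least 20 members, the level of a gene at 50 ppm or more differed between the highest and lowest set by a median of 0.59 on the log2 scale (3945 genes). Genes of position and of secretory cells spread more. Gip, the hormone of duodenal endocrine cells, had 356 ppm in the members of set 2 and 6.27 ppm in those of set 6, and 434 and 40.3 ppm in the G1/S cells of the same sets. Reg3b, an antimicrobial lectin, had 222 ppm in set 2 and 3009 ppm in set 6, beside 274 and 1749.9 ppm in G1/S cells. Zg16, a goblet cell gene, had 602 ppm in set 1 and 31.5 ppm in set 2, beside 735 and 51.0 ppm.

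Hist1h2ap and Gm10076 were high in sets 3 and 7 in both kinds of cell. Hist1h2ap had 757 and 752 ppm in the members of those sets and at most 300.2 ppm in the other sets, and 702 and 654 ppm in their G1/S cells with at most 222 ppm elsewhere. Gm10076 had 1106 and 903 ppm in the members against at most 502 ppm, and 1235 and 913 ppm in G1/S cells against at most 526.2 ppm. These genes were chosen after their values were seen, and what sets 3 and 7 share is not in the labels.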
